A study of Mus musculus with 11 samples.

Results

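The 10 genes described here encode secreted signals of the TGF-beta superfamily and proteins that bind and block such signals. The ligand genes are Gdf3, Gdf15, Inhba, Inhbb, Bmp4, Bmp6, Tgfb2 and Tgfb3, and the antagonist genes are Fst and Grem1. They were chosen by gene name, and Gdf3 was selected for its large rise with ovalbumin on these same arrays, so its ovalbumin values are given as a description with no test. All 10 are among the 21875 genes measured, through 12 probes, where a gene counts as measured if a probe rose well over background on 2 or more of the 11 arrays. The 11 probes of the other 9 genes reached that level on 11 of 11 arrays, and the Gdf3 probe on 7, so Gdf3 passed the filter mainly through its ovalbumin arrays.

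Total RNA of mouse lung was hybridised to 11 one-colour arrays in 4 groups: 3 Foxa3-/- ovalbumin (KO OVA), 3 littermate control ovalbumin (WT OVA), 2 Foxa3-/- saline (KO saline) and 3 littermate control saline (WT saline) samples. Foxa3 is a forkhead transcription factor gene, and ovalbumin (OVA) is an egg allergen given to mice to provoke allergic airway inflammation. The series compared the 2 genotypes after each challenge. The labels give no strain, age, dose or time, do not say which part of Foxa3 was deleted, and leave unstated if an array stands for a single animal, so p-values measure the spread between these samples, which may be technical.

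Most ligands of this superfamily are secreted as dimers and bind pairs of type I and type II receptor kinases. These kinases phosphorylate Smad proteins that then act on genes in the nucleus. Not every ligand described here need act in this way. TGF-betas and activins signal mainly through Smad2 and Smad3, and bone morphogenetic proteins (BMPs) through Smad1, Smad5 and Smad8. In lung the family is known for branching and vascular development, for control of inflammation and for matrix deposition in airway remodelling, and extracellular antagonists such as follistatin and gremlin hold the ligands away from their receptors.

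Each gene was read by 60-base probes, whose sequences, printed 5′ to 3′ as the scanner files give them, define what each value measures. The 4 shown are those of Gdf3, of the only member that rose and was tested, of the member with a second probe that passed the same test, and of the member printed in several spots. The Gdf3 probe lies at chr6:122643573-122643632 on the minus strand (mm7, the build of the files), the Inhba probe at chr13:15394279-15394338 on the plus strand, and the Bmp4 probe at chr14:41704207-41704266 on the minus strand. The Bmp6 probe shown matches chr13:37888649-37903792 on the plus strand, a span of 15144 bases for 60 letters, so it joins separate exons.
Gdf3: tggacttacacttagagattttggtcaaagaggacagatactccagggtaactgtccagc
Inhba: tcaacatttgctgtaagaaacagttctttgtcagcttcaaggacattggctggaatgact
Bmp6: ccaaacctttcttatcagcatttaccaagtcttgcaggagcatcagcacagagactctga
Bmp4: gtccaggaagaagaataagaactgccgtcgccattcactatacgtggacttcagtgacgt

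Values are log2 spot intensities after subtraction of each array's 75th percentile, so 0 is that percentile, and differences carry their standard error. The check of the genotype labels held: the Foxa3 probe was well above background on 0 of 5 KO arrays and 6 of 6 WT arrays. On this intensity scale Foxa3 was at least 8.5-fold lower in KO than in WT lungs after OVA (limma adjusted p 0.000364) and at least 1.6-fold lower after saline (limma adjusted p 0.0322). Between 71.74% and 79.3% of spots were well above background per array. Markers of alveolar type II, airway, endothelial and fibroblast cells were well above background in every group, as the lung label requires. The arrays came from 3 slides, and all 4 groups are present on slides 1 and 2, while KO saline is missing from slide 3. On the first principal component the OVA arrays lay between 13.3 and 66.4, with WT OVA 1 (13.3) and KO OVA 2 (13.8) nearest to the saline arrays, which lay between -58.7 and -44.9. The second component parted the slides: arrays of slide 1 lay between 34 and 41.9, and those of slides 2 and 3 between -29 and -16.8.

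**Figure D1:**
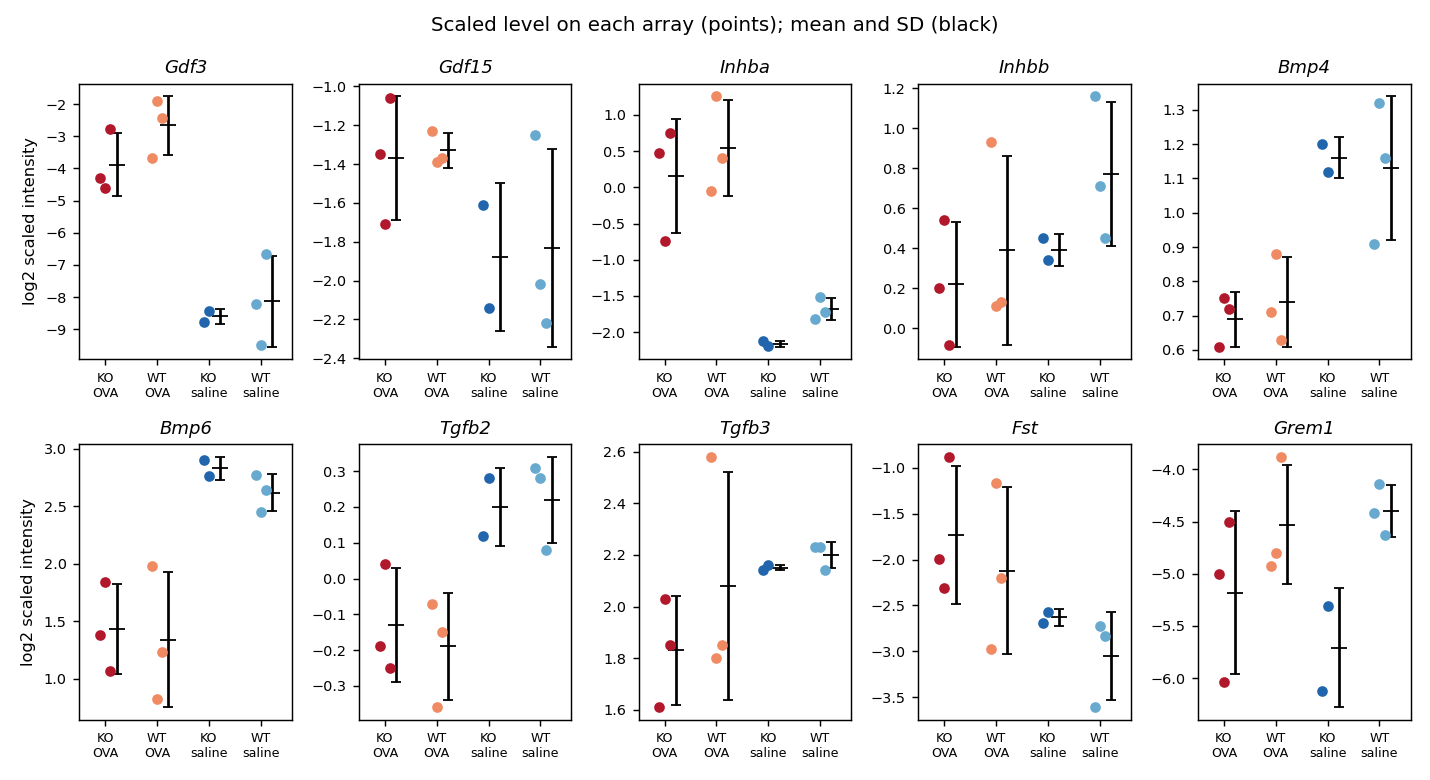
Scaled log2 intensity (vertical axes, each with its own range) of the 10 genes on each of the 11 arrays, with group mean and SD in black. Gdf3 and Inhba lie higher on every OVA array than on any saline array, and Bmp4, Bmp6 and Tgfb2 lie lower.

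After OVA, Inhba rose about 5-fold in both genotypes, Bmp6 fell to less than 1/2 of its saline level in both, and Tgfb2 fell by a smaller amount in WT. Of the 9 members tested, 1 rose (Inhba) and 1 fell (Bmp6) in KO lungs, where 6.17% of all genes rose and 1.93% fell. In WT lungs 1 rose (Inhba) and 2 fell (Bmp6 and Tgfb2), where 10.5% of all genes rose and 8.48% fell (limma, adjusted p under 0.05 over 21875 genes). All 6 OVA arrays lay above all 5 saline arrays for 1 of the 9 (Inhba), as for 12.7% of all genes, and below them for 3 (Bmp4, Bmp6 and Tgfb2), as for 11.4% of all genes. The median difference of the 9 was -0.17 in KO lungs (all genes -0.026) and -0.14 in WT lungs (all genes 0.001). These are whole-lung values, in which fewer cells of a type and less RNA per cell cannot be told apart.

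Gdf3 encodes a ligand known from mouse pluripotent cells and early embryos. It stood at -4.29, -4.60 and -2.77 on KO OVA arrays 1 to 3 and at -3.67, -1.90 and -2.42 on WT OVA arrays 1 to 3. Its saline levels were -8.77 and -8.44 on the KO arrays and -8.23, -9.49 and -6.67 on the WT arrays. The lowest OVA array lay above the highest saline array, which was WT saline 3, the only saline array on which the probe was well above background. The OVA minus saline difference was 4.72 ± 0.84 in KO lungs, where the bound set by the background limit is at least 7.2-fold on this intensity scale, and 5.46 ± 0.76 in WT lungs. Within slides it was 4.15 and 6.0 in KO lungs (slides 1 and 2) and 5.81, 5.81 and 4.77 in WT lungs (slides 1 to 3). The size depends on how signal near background is handled: the deposited value table gives 1.41 in KO and 2.17 in WT lungs, and its KO value is smaller than that bound. Ordered by mean, WT OVA (-2.66 ± 0.91, SD, n = 3) came first, then KO OVA (-3.88 ± 0.98, n = 3), WT saline (-8.13 ± 1.41, n = 3) and KO saline (-8.60 ± 0.23, n = 2), and the genotypes did not differ beyond their spread after either challenge.

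Inhba encodes the beta A subunit of activin A, a Smad2 and Smad3 ligand that macrophages, epithelium and fibroblasts can secrete. It stood at 0.48, -0.74 and 0.75 on the KO OVA arrays and at -0.05, 1.26 and 0.41 on the WT OVA arrays. On saline arrays it stood at -2.13 and -2.19 in KO and at -1.82, -1.52 and -1.72 in WT lungs. Every OVA array lay above every saline array, and the spread was wider after OVA in both genotypes. Inhba rose by 2.33 ± 0.46 in KO lungs (5.02-fold, limma adjusted p 0.0206) and by 2.22 ± 0.41 in WT lungs (4.67-fold, limma adjusted p 0.0112). Within slides the rise was 2.68 and 2.88 in KO lungs (slides 1 and 2) and 2.23, 1.47 and 2.98 in WT lungs (slides 1 to 3). The WT call held with any 1 array left out (adjusted p 0.00507 to 0.0405), while the KO call ended with slide as a block (2.36, limma adjusted p 0.0581) or without KO saline 1 (0.132), KO saline 2 (0.117), KO OVA 1 (0.0661) or KO OVA 3 (0.0691), at differences of 2.04 to 2.78 over all left-out arrays. Without slide 1, which leaves 7 arrays, both calls ended at differences of 2.14 in KO and 2.22 in WT lungs (limma adjusted p 0.354 and 0.21).

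Markers of macrophages and monocytes were higher after OVA together with Gdf3 and Inhba. All 12 markers of that list were well above background in every group, 9 rose in KO and 12 in WT lungs, where 6.17% and 10.5% of all genes rose, and none fell. Their summed level, in percent of the array's 75th percentile intensity, was 6600, 6310 and 11200 on the KO OVA arrays and 6410, 13100 and 8850 on the WT OVA arrays. On saline arrays it was 2300 and 2210 in KO and 2360, 2310 and 2590 in WT lungs. The array with the highest sum, WT OVA 2, also had the highest Gdf3 and Inhba levels. KO OVA 2, with the lowest sum among OVA arrays, had the lowest of both among OVA arrays. Between these extremes the orders differed: KO OVA 3 had a higher sum than WT OVA 3 but a lower Gdf3 level (-2.77 and -2.42). The match at the extremes is not particular to these markers. On the first principal component of all genes WT OVA 2 also lay highest (66.4), and KO OVA 2 (13.8) next to lowest of the OVA arrays. By counts and medians the list of alveolar macrophage markers did not move this way: of its 8 genes, 0 rose and 2 fell in KO lungs and 1 rose and 3 fell in WT lungs, with median differences of -0.37 and -0.40. Its summed level was 12600 to 15600 in KO OVA and 12000 to 13800 in KO saline lungs, which overlap. In WT lungs this sum was higher after OVA, at 14900 to 18000 against 9970 to 11800 after saline. Higher levels after OVA were not particular to macrophage and monocyte markers, whose median differences were 1.70 in KO and 1.77 in WT lungs. Of 5 goblet cell markers, 4 rose in KO and 5 in WT lungs (medians 2.15 and 2.53). Of 8 T cell markers, 2 rose in KO and 6 in WT lungs (medians 0.68 and 1.27), and none of either list fell. The part of any of these cell types in the changes of Gdf3 and Inhba was not tested.

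Inhbb encodes the activin beta B subunit. On the probe that represents it, it stood at 0.20, 0.54 and -0.08 on the KO OVA arrays and at 0.93, 0.11 and 0.13 on the WT OVA arrays. Saline levels were 0.45 and 0.34 in KO and 1.16, 0.71 and 0.45 in WT lungs. The groups overlapped, and the difference was -0.17 ± 0.30 in KO lungs (95% interval -0.85 to 0.51) and -0.39 ± 0.27 in WT lungs (-0.99 to 0.22), with limma adjusted p 0.753 and 0.334. A second, dimmer probe gave -0.31 in KO and -0.26 in WT lungs, also not past the threshold. Whether Inhbb and Inhba differ in their change was not tested.

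Gdf15 encodes a distant member of the family induced by cell stress. It stood at -1.35, -1.71 and -1.06 on the KO OVA arrays and at -1.23, -1.39 and -1.37 on the WT OVA arrays. Saline levels were -1.61 and -2.14 in KO and -1.25, -2.02 and -2.22 in WT lungs. WT saline 1 and KO saline 1 lay within the OVA range, so the groups overlapped. The difference was 0.50 ± 0.30 in KO (95% interval -0.17 to 1.18, limma adjusted p 0.288) and 0.50 ± 0.27 in WT lungs (-0.11 to 1.11, limma adjusted p 0.211). Within slide 1 the WT difference was -0.12, against 0.79 and 0.83 on slides 2 and 3.

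Bmp6 encodes a BMP ligand known as a main inducer of hepcidin in mouse liver. Its brighter probe stood at 1.38, 1.84 and 1.07 on the KO OVA arrays and at 1.98, 0.82 and 1.23 on the WT OVA arrays. Saline levels were 2.90 and 2.76 in KO and 2.77, 2.45 and 2.64 in WT lungs. Every OVA array lay below every saline array. Bmp6 fell by 1.40 ± 0.32 on the log2 scale in KO lungs (limma adjusted p 0.0354) and by 1.28 ± 0.29 in WT lungs (limma adjusted p 0.0216). The exon-joining probe printed above differed by -1.52 in KO and -1.43 in WT lungs (limma adjusted p 0.0308 and 0.0168 over 32946 probes), so both probes gave a fall. On that probe the levels were -2.05, -1.56 and -2.17 after OVA in KO, -1.26, -2.39 and -2.17 after OVA in WT, -0.38 and -0.44 after saline in KO, and -0.34, -0.84 and -0.35 after saline in WT lungs.

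Within slides the brighter Bmp6 probe differed by -1.38 and -1.83 in KO lungs (slides 1 and 2) and by -1.54, -0.47 and -1.82 in WT lungs (slides 1 to 3). Slide 2 holds WT OVA 1, the WT OVA array with the highest Bmp6 level. The KO call ended with slide as a block (-1.39, limma adjusted p 0.0862) and without WT saline 1 (adjusted p 0.0516), WT saline 2 (0.0578), WT saline 3 (0.0586), KO saline 1 (0.194), KO saline 2 (0.147), WT OVA 3 (0.057), KO OVA 1 (0.0905) or KO OVA 3 (0.11). The WT call ended without WT saline 1 (limma adjusted p 0.0652), WT saline 2 (0.0573), WT saline 3 (0.0574), WT OVA 2 (0.0726) or WT OVA 3 (0.0756). Over all left-out arrays the difference stayed between -1.61 and -1.22 in KO and between -1.59 and -1.01 in WT lungs. Without slide 1 it was -1.45 in KO and -1.14 in WT lungs, with limma adjusted p 0.37 and 0.258.

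Bmp4 encodes a ligand that guides lung bud outgrowth in the mouse embryo, and its value is the mean of 10 spots. It stood at 0.61, 0.75 and 0.72 on the KO OVA arrays and at 0.71, 0.88 and 0.63 on the WT OVA arrays. Saline levels were 1.20 and 1.12 in KO and 0.91, 1.32 and 1.16 in WT lungs. Every OVA array lay below every saline array, with WT OVA 2 (0.88) and WT saline 1 (0.91) nearest to each other. The difference was -0.47 ± 0.14 in KO lungs (limma adjusted p 0.0666) and -0.39 ± 0.12 in WT lungs (limma adjusted p 0.0549), so neither passed the threshold. Within slides it was -0.51 and -0.48 in KO lungs (slides 1 and 2) and -0.28, -0.62 and -0.28 in WT lungs (slides 1 to 3). The WT value passed without WT saline 1 (-0.50, limma adjusted p 0.0451), with the filter by every array of a group (0.0489), the trended prior (0.0344), the deposited value table (0.0301) and normexp without spots of bright local background (0.035). The KO value passed with the trended prior (limma adjusted p 0.0405).

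Endothelial markers lay lower on OVA arrays as well. Of the 7 markers measured, all well above background in every group, 1 fell in KO (Pecam1) and 4 in WT lungs, where 1.93% and 8.48% of all genes fell, and none rose. The median difference of the list was -0.52 in KO and -0.61 in WT lungs. Lower medians were not particular to it: they were -0.59 and -0.51 for 8 alveolar type I markers and -0.27 and -0.46 for 8 club and ciliated cell markers. The summed level of the endothelial markers was 8170, 8470 and 6640 on the KO OVA arrays and 9860, 6510 and 6850 on the WT OVA arrays. On saline arrays it was 11200 and 10900 in KO and 12500, 10200 and 9870 in WT lungs. The 6 OVA arrays had the same order for Bmp6 as for this sum, from WT OVA 1 (highest) to WT OVA 2 (lowest). That order is not particular to endothelial markers: the first principal component of all genes also ran in it, from 13.3 (WT OVA 1) to 66.4 (WT OVA 2). For the sums of alveolar type I and of club and ciliated markers, WT OVA 1 and KO OVA 2 were likewise highest of the OVA arrays. KO OVA 3 and WT OVA 2 were lowest in both. WT OVA 1 and WT saline 3 nearly met in the endothelial sum (9860 and 9870) and stood at 1.98 and 2.64 for Bmp6. Bmp4 did not share the endothelial order among the OVA arrays. It was highest on WT OVA 2 (0.88), the array with the lowest sum, and stood at 0.71 on WT OVA 1, with the highest sum. The part of any of these cell types in the fall of Bmp6 or in the levels of Bmp4 was not tested.

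**Figure D2:**
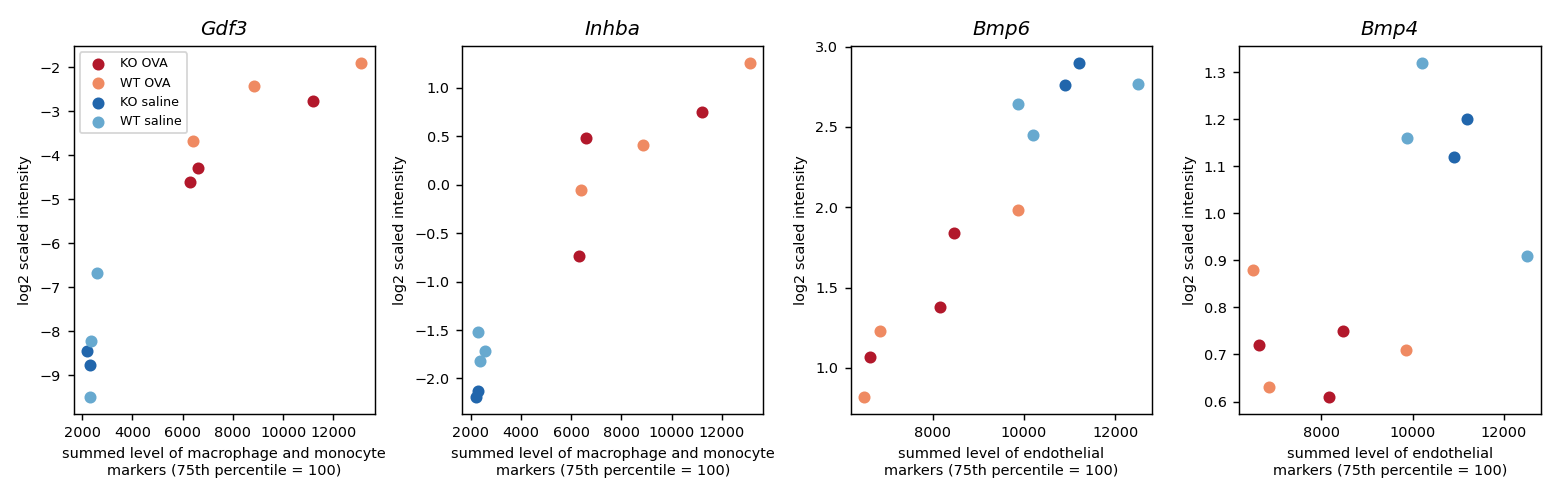
Scaled log2 intensity of Gdf3 and Inhba against the summed level of 12 macrophage and monocyte markers, and of Bmp6 and Bmp4 against that of 7 endothelial markers, with 1 point per array. The OVA arrays spread from 6310 to 13100 on the macrophage axis, and the saline arrays lie between 2210 and 2590.

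Tgfb2 and Tgfb3 encode TGF-beta ligands that are secreted in a latent form. Tgfb2 stood at -0.19, 0.04 and -0.25 on the KO OVA arrays and at -0.07, -0.36 and -0.15 on the WT OVA arrays. Its saline levels were 0.12 and 0.28 in KO and 0.31, 0.28 and 0.08 in WT lungs. Every OVA array lay below every saline array, though KO OVA 2 (0.04) and WT saline 3 (0.08) nearly met. Tgfb2 fell by 0.41 ± 0.12 in WT lungs (limma adjusted p 0.0481), and the KO value, -0.33 ± 0.14, did not pass (limma adjusted p 0.145). Within slides the difference was -0.47 and -0.37 in KO lungs (slides 1 and 2) and -0.45, -0.35 and -0.44 in WT lungs (slides 1 to 3). The WT call lies at the threshold. It ended with slide as a block (-0.41, limma adjusted p 0.0769), with median scaling (0.0506), without the filter on dim probes (0.0611) and with the mean of probes (0.0523). It also ended under 9 of 11 left-out arrays, among them WT saline 2 (0.136) and WT OVA 2 (0.16), and held without WT OVA 1 (0.0347) and KO OVA 2 (0.0402), all by limma.

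Tgfb3 stood at 1.61, 2.03 and 1.85 on the KO OVA arrays and at 2.58, 1.80 and 1.85 on the WT OVA arrays. Its saline levels were 2.14 and 2.16 in KO and 2.23, 2.23 and 2.14 in WT lungs. The saline arrays lay within 0.1 of each other, while WT OVA 1 was above all of them and the other 5 OVA arrays below. The difference was -0.32 ± 0.23 in KO (95% interval -0.83 to 0.19, limma adjusted p 0.376) and -0.12 ± 0.20 in WT lungs (-0.58 to 0.34, limma adjusted p 0.706). Without WT OVA 1 the WT difference was -0.38, with limma adjusted p 0.0641.

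Among the antagonists, Fst encodes follistatin, which binds activins nearly irreversibly. It stood at -1.99, -2.31 and -0.88 on the KO OVA arrays and at -2.98, -1.17 and -2.20 on the WT OVA arrays. Saline levels were -2.69 and -2.57 in KO and -3.61, -2.72 and -2.83 in WT lungs. WT OVA 1 fell inside the saline range, and the other 5 OVA arrays lay above it. The difference was 0.90 ± 0.56 in KO (95% interval -0.36 to 2.16, limma adjusted p 0.305) and 0.94 ± 0.50 in WT lungs (-0.19 to 2.06, limma adjusted p 0.207). Within slide 2 the WT difference was -0.26, against 1.41 and 1.66 on slides 1 and 3.

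Grem1 encodes gremlin 1, an antagonist of BMP2, BMP4 and BMP7. It stood at -5.00, -6.04 and -4.50 on the KO OVA arrays and at -4.93, -4.80 and -3.88 on the WT OVA arrays. Saline levels were -6.12 and -5.31 in KO and -4.42, -4.14 and -4.63 in WT lungs. OVA and saline arrays overlapped in both genotypes. The OVA difference was 0.53 ± 0.47 in KO (95% interval -0.54 to 1.61, limma adjusted p 0.486) and -0.14 ± 0.42 in WT lungs (-1.10 to 0.82, limma adjusted p 0.852).

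**Figure D3:**
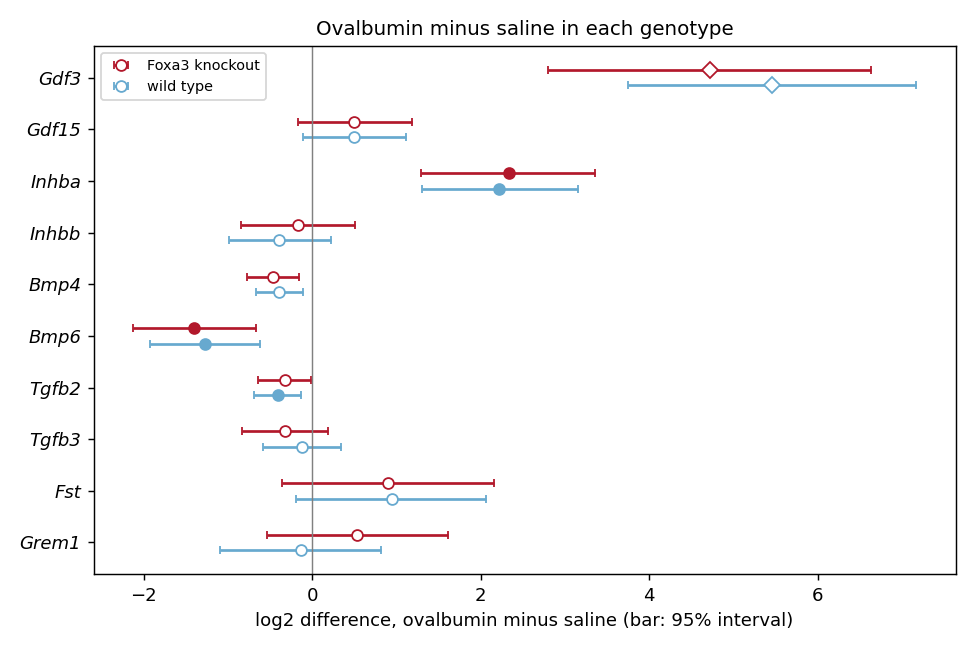
Log2 difference of OVA minus saline with its 95% interval for each gene, in Foxa3 knockout (upper of each pair) and wild-type lungs. Filled circles have limma adjusted p under 0.05 (Inhba and Bmp6 in both genotypes, Tgfb2 in wild type), open circles do not, and diamonds mark Gdf3, which was selected on this contrast and not tested.

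The comparison of Foxa3-/- with control lungs called none of the members. After OVA, 0 of 10 passed, where 0.215% of all genes did, and the unadjusted p was under 0.05 for 0 of 10. After saline, 0 of 10 passed, where 0.096% of all genes did, and the unadjusted p was under 0.05 for 1, Grem1. Gdf3 is among these 10, though its saline levels lay at or near background. The difference of the OVA effects, KO minus WT, passed for 0 of the 9 members other than Gdf3. Of all genes, 0.00457% (1 gene) passed, and the unadjusted p was under 0.05 for 0 of those 9 members (limma throughout). Gdf3 was left out there because this difference is built from the values it was selected on. The median difference of KO minus WT was -0.11 after OVA (all genes 0.017) and -0.05 after saline (all genes 0.024).

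Grem1 had the lowest unadjusted p of these. In saline-challenged lungs both KO arrays (-6.12 and -5.31) lay below all 3 WT arrays (-4.42, -4.14 and -4.63), a difference of -1.32 ± 0.47 (95% interval -2.39 to -0.24, limma p 0.0215, adjusted p 1). Within slides it was -0.89 and -1.98 (slides 1 and 2). After OVA the groups overlapped, at -0.65 ± 0.42 (95% interval -1.60 to 0.31, limma adjusted p 0.999), with -1.12, 0.43 and -1.24 on slides 1 to 3.

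For Gdf3 the genotype difference was imprecise. The 3 KO OVA arrays (-4.29, -4.60 and -2.77) overlapped the 3 WT OVA arrays (-3.67, -1.90 and -2.42), and the difference was -1.22 ± 0.76 (95% interval -2.93 to 0.49, limma adjusted p 0.999). Within slides it was -1.87, 0.90 and -2.69 (slides 1 to 3), so the sign changed between slides. After saline it was -0.47 ± 0.84 (95% interval -2.39 to 1.44), from levels at or near background. Inhba differed by -0.38 ± 0.41 after OVA (95% interval -1.30 to 0.55) and by -0.48 ± 0.46 after saline (-1.52 to 0.56). Within slides the Inhba difference after OVA was 0.07, 0.80 and -1.99 (slides 1 to 3), so its sign changed as well.

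The narrowest intervals were those of Bmp4 and Tgfb2. KO minus WT was -0.05 for Bmp4 (95% interval -0.33 to 0.23) and 0.06 for Tgfb2 (-0.22 to 0.34) after OVA. After saline it was 0.03 for Bmp4 (95% interval -0.28 to 0.35) and -0.02 for Tgfb2 (-0.34 to 0.29). Bmp6 differed by 0.09 after OVA (95% interval -0.57 to 0.74) and by 0.21 after saline (-0.52 to 0.94). The remaining members, Gdf15, Inhbb, Tgfb3 and Fst, lay between -0.25 and 0.39 after OVA and between -0.38 and 0.43 after saline. The OVA effect of Inhba differed between genotypes by 0.10 ± 0.61 (95% interval -1.29 to 1.49), that of Bmp6 by -0.13 ± 0.43 (-1.11 to 0.86) and that of Tgfb2 by 0.08 ± 0.19 (-0.34 to 0.50), so the WT-only call of Tgfb2 does not show a difference between genotypes.

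**Figure D4:**
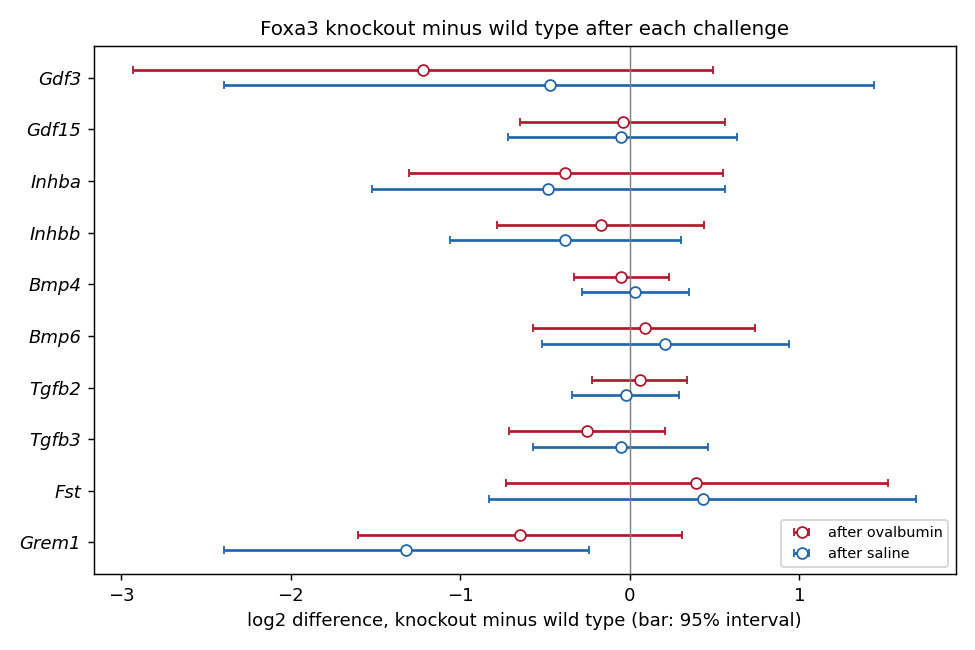
Log2 difference of Foxa3 knockout minus wild type with its 95% interval for each gene, after OVA (upper of each pair) and after saline. No point has limma adjusted p under 0.05, and the interval of Grem1 after saline, -2.39 to -0.24, lies wholly below 0.

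The members were also compared by the likeness of their profiles, as the root mean square difference of mean-centred log2 values over the 11 arrays. Bmp4 and Tgfb2 were each other's nearest member at 0.18. The nearest member to Gdf3 was Inhba at 1.61, and Gdf3 varied more over arrays (SD 2.82, against 1.27 for Inhba). Among all genes, those nearest to Gdf3 were Acod1 (0.70), which makes the macrophage metabolite itaconate, the chemokine genes Cxcl10 (0.76) and Ccl7 (0.80), Ceacam19 (0.77) and Timp1 (0.82), an inhibitor of matrix metalloproteinases. Likeness to a gene selected for its OVA difference selects for the same difference, so these values carry no test: OVA minus saline was 4.70 in KO and 5.39 in WT lungs for Cxcl10, and 4.70 and 4.31 for Timp1.

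Gdf3 lies on mouse chromosome 6 beside Dppa3 and Apobec1 in the GRCm38.p6 gene order, and both of these were measured. Dppa3, a maternal factor gene of the early mouse embryo, stood at -5.41, -4.66 and -4.37 on the KO OVA arrays and at -5.24, -4.29 and -4.66 on the WT OVA arrays. Its probe was well above background on all 6 OVA arrays and on 0 of 5 saline arrays, so it passed the filter through the OVA arrays alone and is described without a test. Measured against the background limit of this intensity scale, Dppa3 was at least 3.8-fold higher after OVA in KO and at least 5.5-fold higher in WT lungs. Apobec1, which encodes an RNA-editing cytidine deaminase, rose by 1.08 in KO (limma adjusted p 0.0372) and by 1.38 in WT lungs (limma adjusted p 0.00716). A second Apobec1 probe was at -8.95 on KO OVA 3, against -2.78 and -2.37 on the other KO OVA arrays, and with the mean of both probes the KO difference was -0.14.

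Because Gdf3 and Dppa3 are known from pluripotent cells, markers of such cells were read beside them. Of the 5 measured, Nanog was, like Dppa3, well above background on OVA arrays alone: 2 of 3 in KO OVA, 2 of 3 in WT OVA and 0 of 5 in saline lungs. It stood at -6.11, -7.01 and -6.02 on the KO OVA arrays and at -7.14, -6.12 and -5.98 on the WT OVA arrays, and is given without a test. Pou5f1, the gene of the pluripotency factor Oct4, differed by -0.35 in KO and -0.03 in WT lungs (limma adjusted p 0.65 and 0.97). The summed level of the 5 was 31.3 to 37.2 in KO OVA, 26.8 to 39.7 in WT OVA, 38.4 to 43.2 in KO saline and 36.8 to 50.1 in WT saline lungs, so it was not higher after OVA. Dppa3 and Nanog are dim and make up little of this sum, which therefore says little about them.

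Other genes of the pathway were read through 6 lists, none of which had a member called between genotypes after either challenge. Beside their counts stand the shares of all genes: 6.17% rose and 1.93% fell in KO lungs, and 10.5% rose and 8.48% fell in WT lungs, and the lists themselves were not tested. Of 19 receptors and coreceptors, 3 fell in KO and 9 in WT lungs, none rose, and the median difference was -0.55 in KO (all genes -0.026) and -0.73 in WT lungs (all genes 0.001). Acvrl1, the endothelial type I receptor ALK1, fell by 0.88 ± 0.19 in KO and 0.84 ± 0.17 in WT lungs (limma adjusted p 0.0309 and 0.0163). Bmpr2, a type II BMP receptor gene, fell by 0.98 ± 0.23 in KO and 0.81 ± 0.20 in WT lungs (limma adjusted p 0.0357 and 0.0294). Acvr2b, an activin type II receptor gene, fell by 0.95 ± 0.24 in KO and 0.98 ± 0.21 in WT lungs (limma adjusted p 0.0447 and 0.0193). Bmpr1b, a BMP type I receptor gene, fell by 0.72 ± 0.16 in WT lungs (limma adjusted p 0.021) and was -0.49 in KO lungs (limma adjusted p 0.109). The receptors of TGF-beta itself, named after their values were seen, did not pass: Tgfbr1 was 0.11 in KO and 0.14 in WT, and Tgfbr2 0.04 and 0.20 (limma adjusted p 0.163 to 0.846). The counts of called receptors depend on slide and on single arrays. With slide as a block they were 0 in KO and 5 in WT lungs. In WT lungs they ran from 0 (without WT OVA 2) and 1 (without WT saline 1, WT saline 2 or WT OVA 3) to 11, and in KO lungs from 0 to 7, with 0 without WT saline 3, KO saline 1, KO saline 2, WT OVA 3, KO OVA 1 or KO OVA 3. Endothelial markers, whose sums are given above beside Bmp6, moved with this list, and their part in it was not tested.

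Of 21 other ligands measured, 1 rose and 1 fell in KO lungs and 0 rose and 3 fell in WT lungs, against 6.17% and 1.93% of all genes in KO and 10.5% and 8.48% in WT lungs. Gdf1 fell by 0.84 ± 0.19 in KO and 0.72 ± 0.17 in WT lungs (limma adjusted p 0.0346 and 0.0246). Bmp2, an endothelial and mesenchymal BMP gene, fell by 0.57 ± 0.15 in WT lungs (limma adjusted p 0.0296) and was -0.49 in KO lungs (0.0866). Gdf10 fell by 0.59 ± 0.13 in WT lungs (limma adjusted p 0.0198) and was -0.03 in KO lungs, and Bmp8a rose by 1.34 ± 0.31 in KO lungs (limma adjusted p 0.036) and was 0.20 in WT lungs. Tgfb1, named after its values were seen, was 0.53 ± 0.23 in KO and 0.43 ± 0.20 in WT lungs and did not pass (limma adjusted p 0.152 and 0.161). With 1 array left out the called ligands numbered 0 to 3 in KO and 0 to 4 in WT lungs, and with slide as a block 0 and 3.

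Of 23 other antagonists and carriers, 1 rose and 2 fell in KO lungs and 1 rose and 6 fell in WT lungs, against 6.17% and 1.93% of all genes in KO and 10.5% and 8.48% in WT lungs. Fmod, whose product fibromodulin binds TGF-beta in matrix, fell by 0.59 ± 0.12 in KO and 0.87 ± 0.11 in WT lungs (limma adjusted p 0.0237 and 0.00284), and its WT call held in 11 of 11 left-out fits. Crim1 fell by 0.76 ± 0.18 in WT lungs (limma adjusted p 0.0233) and was -0.71 in KO lungs (0.0589). Fstl1, a follistatin-like gene, rose by 0.53 ± 0.13 in KO lungs (limma adjusted p 0.0377) and was 0.25 in WT lungs. Further WT calls, named after their values were seen, were a rise of Sostdc1 (1.49) and falls of Chrdl2, Ltbp3 and Ltbp4 (-1.22, -0.63 and -1.30). Their limma adjusted p in WT lungs ran from 0.0301 to 0.0454. In KO lungs Sostdc1 was 1.66, Chrdl2 0.36, Ltbp3 -0.54 and Ltbp4 -1.18, none past the threshold (limma adjusted p 0.0679 to 0.578). Chrdl2 is a BMP antagonist gene, and Ltbp3 and Ltbp4 encode proteins that tether latent TGF-beta to matrix. Left-out fits called 0 to 9 genes of this list in KO and 1 to 10 in WT lungs, and slide as a block 0 and 3.

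Of 12 genes on a list of latency activators, drawn up around the release of latent TGF-beta, 2 rose and none fell in each genotype. Of all genes, 6.17% rose in KO and 10.5% in WT lungs. Whether each product on the list, that of Thbs2 included, releases TGF-beta was not tested. Plau, the urokinase gene, rose by 1.55 ± 0.39 in KO and 1.70 ± 0.35 in WT lungs (limma adjusted p 0.0461 and 0.0161), and Thbs2, a thrombospondin gene, by 0.85 ± 0.13 and 0.46 ± 0.12 (0.00793 and 0.0291). Left-out fits called 0 to 2 of these in KO and 0 to 3 in WT lungs, slide as a block left 1 in each, and the KO call of Plau held in 3 of 11 left-out fits. Of 16 Smads and regulators none were called in KO lungs, while 1 rose and 3 fell in WT lungs, where 10.5% of all genes rose and 8.48% fell. Smad6, an inhibitory Smad of the BMP branch, fell by 1.27 ± 0.31 in WT lungs (limma adjusted p 0.0296, without a value on WT OVA 1) and was -1.12 in KO lungs (0.0624). Smad3 fell by 0.52 ± 0.12 and Smurf2, a ubiquitin ligase gene that acts on Smads and receptors, by 0.88 ± 0.23 in WT lungs, and the repressor gene Tgif1 rose by 0.55 ± 0.16 (limma adjusted p 0.0215, 0.0347 and 0.0438). In KO lungs these were -0.39, -0.79 and 0.33, none past the threshold. Left-out fits called 0 to 3 Smad genes in KO and 0 to 5 in WT lungs, and slide as a block 0 and 2.

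Of 20 genes known to respond to TGF-beta or BMP, 4 rose and none fell in KO lungs and 3 rose and 2 fell in WT lungs, against 6.17% and 1.93% of all genes in KO and 10.5% and 8.48% in WT lungs. Col3a1 and Col1a1, fibrillar collagen genes, rose by 1.5 ± 0.17 and 1.17 ± 0.20 in KO (limma adjusted p 0.00373 and 0.0123) and by 1.09 ± 0.16 and 0.97 ± 0.18 in WT lungs (0.00426 and 0.0114). Tgfbi, which encodes a TGF-beta induced matrix protein that macrophages also make, rose by 1.94 ± 0.44 in KO and 1.97 ± 0.39 in WT lungs (limma adjusted p 0.0333 and 0.0142). Bambi, a decoy receptor gene that is also on the receptor list, fell by 0.80 ± 0.19 in WT lungs (limma adjusted p 0.0257) and was -0.69 in KO lungs. The other called genes of the list were Smad6, given above, and in KO lungs Acta2 (0.46), named after its value was seen. Both collagen genes are also on the fibroblast marker list, of which 3 of 8 rose in each genotype (all 3 collagen genes) and 1, Pdgfra, fell in WT lungs. The median difference of that list was -0.15 in KO and -0.34 in WT lungs. Its summed level contains the collagen genes themselves, so it is no separate measure of fibroblasts. That sum was 13800 to 16600 in KO OVA, 15600 to 19700 in WT OVA, 9510 to 10500 in KO saline and 11700 to 11900 in WT saline lungs. The part of fibroblasts in the collagen rise was not tested. Left-out fits called 0 to 8 genes in KO and 2 to 10 in WT lungs, slide as a block 2 and 4, and both collagen calls held in 10 of 11 of them in KO and 11 of 11 in WT lungs.

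**Figure D5:**
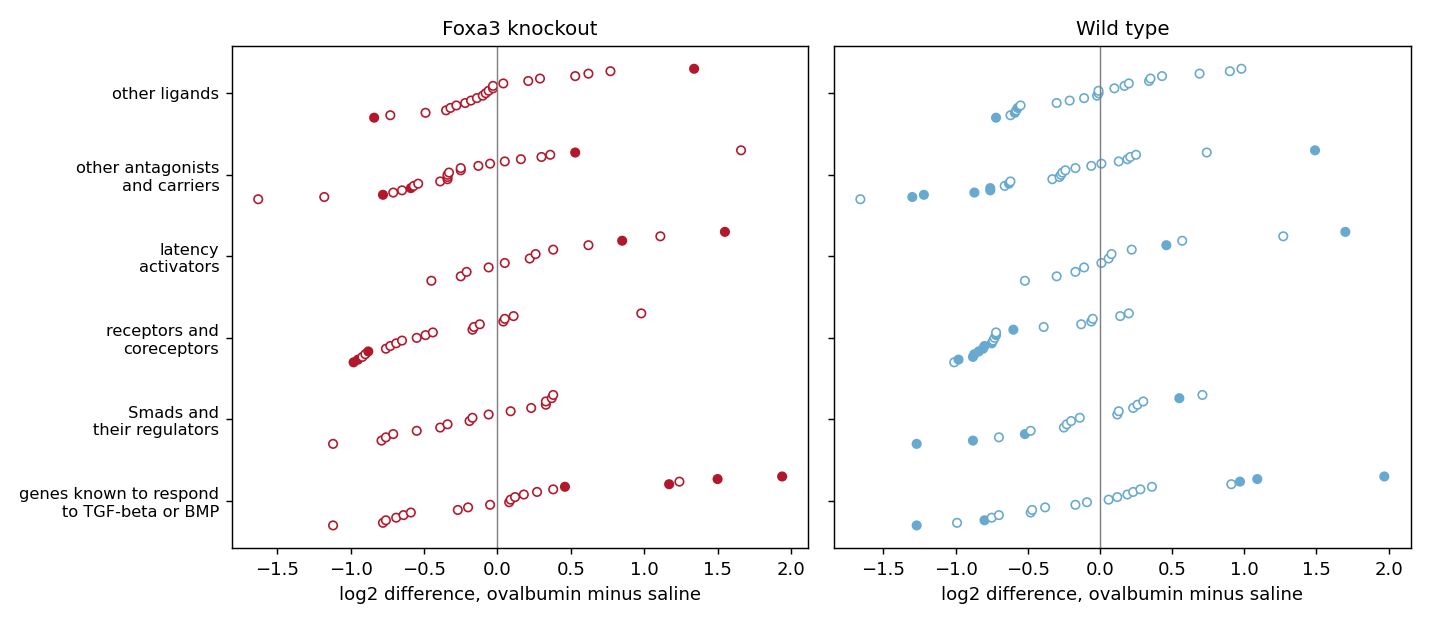
Log2 difference of OVA minus saline for each measured gene of 6 pathway lists, in Foxa3 knockout (left) and wild-type lungs (right). Filled points have limma adjusted p under 0.05. Of 19 receptors and coreceptors, 3 in knockout and 9 in wild-type lungs fell and 0 rose.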

How the data were processed

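Per the file headers, the authors' scanner files hold, for every spot, the intensity after background subtraction and detrending by Agilent Feature Extraction 9.5.1.1 (version 9.1 per the submitters' processing notes). The deposited value table holds log2 values with column medians of 7.669 to 7.674. Its ranks follow the scanner intensities (rank correlation 0.9925 to 0.9968), so scale and direction could be read from it, while its centring method is not given in the sources used here.

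Intensities were taken as log2, each array's 75th percentile was subtracted, and 32946 probes passed the filter (well above background on 2 or more arrays). Spots of 1 probe were averaged, and a gene's value is that of its probe with the highest mean level. Gene names came from RefSeq accessions where they matched (22951 probes), then symbols (6659) or synonyms (3109), and otherwise the file (8455). All 11 arrays entered a limma fit (version 3.58.1 in R 4.3.3) that gave every group its own mean, with empirical Bayes moderation and Benjamini-Hochberg adjustment over 21875 genes. Bounds given as "at least" use the lowest signal well above background of any probe on each array. They hold only on this intensity scale and not under other background handling. Precision is limited by the small number of arrays: on simulated data of 21750 genes the model recovered 59.7% of 67 genes changed 2-fold by OVA in wild type and 47.8% in knockout, and 43.3% for knockout against wild type after OVA. Far fewer genes were changed there than were called after OVA here, and no slide effect was simulated. The OVA shares therefore do not measure how often the reported OVA tests would find a 2-fold change. The members and gene lists were chosen with earlier results of these data known. Genes of the lists are named by smallest p, up to 4 per list, among those called, and some genes that this rule names are not reported here. Samples with the same replicate number did not deviate together (r -0.40 to 0.34, above 0.1 in 4 of 15 pairs), so no pairing was used. Arrays of the same slide did deviate together more often (r -0.16 to 0.48, above 0.1 in 12 of 15 pairs). The model as designed has no term for slide, so values within slides and with slide as a block are given beside the results they change.

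Alternatives changed the background correction (normexp, offset 50), the scaling (median or quantile), the filter on dim probes, the summary over probes or the prior (trended and robust). Others fitted only the arrays being compared, added slide or replicate number as a block, used the deposited value table or left out an array. After the data were seen, 2 more were added: normexp leaving out spots whose local background was over 2 times the array's median, and a model without slide 1.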

Additional observations from a re-analysis of the deposited data

Results flagged for a closer look

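Bmp8a, a BMP ligand outside the 10 genes, was singled out because the genotype difference pointed one way on every KO array after OVA and the other way on every KO array after saline. It stood at -3.42, -4.77 and -4.24 in KO OVA, -5.02, -4.93 and -4.85 in WT OVA, -5.40 and -5.56 in KO saline and -5.06, -5.23 and -5.11 in WT saline lungs. KO minus WT was 0.79 after OVA and -0.35 after saline (limma adjusted p 0.768 and 1). The difference of the OVA effects, 1.14, did not pass (limma adjusted p 1). Groups of 2 or 3 arrays were too small to look for outlying arrays.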

How the results depend on the processing

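Over 24 other settings the directions of Inhba (up), Bmp6, Bmp4 and Tgfb2 (down) after OVA held in both genotypes. The 3 members called in WT lungs became 0 with normexp and without slide 1, and 1 with only the groups compared, and ranged from 1 to 3 with 1 array left out. They became 4, with Bmp4 added, in 4 settings: normexp without bright-background spots, the filter by every array of a group, the trended prior and the deposited value table. The 2 called in KO lungs became 0 with normexp, only the groups compared, slide as a block, replicate number as a block (replicate block) and without slide 1, and ranged from 0 to 2 with 1 array left out. They became 3 with the trended prior. With the replicate block, Inhba was 2.26 in KO and 2.22 in WT lungs (limma adjusted p 0.079 and 0.0282), and 2 members were called in WT lungs. With normexp after leaving out spots of bright local background, Inhba and Bmp6 passed in both genotypes. Without slide 1 fewer arrays remain. The cause of the other losses was not tested. Gdf3 after OVA was 1.35 in KO and 1.70 in WT lungs with normexp, 1.35 and 2.22 with normexp without the bright-background spots, and 1.41 and 2.17 in the deposited value table. Over all genes, KO OVA calls were 1350 up and 423 down, against 761 and 65 with slide as a block, and WT OVA calls 2305 up and 1854 down, against 1869 and 850. In KO lungs the deposited value table gave 1641 up and 1221 down, and normexp without bright-background spots 1402 and 849. Normexp gave 0 calls in KO lungs and 11 in WT lungs, and it moved the median of all genes to -0.239 for KO minus WT after OVA and -0.231 after saline. Without bright-background spots these medians were -0.043 and 0.076, and that for OVA in WT lungs was 0.106. Single arrays moved the counts over all genes further: KO OVA calls were 63 up and 4 down without KO saline 1 and 1928 and 1394 without KO OVA 2, and WT OVA calls 929 and 137 without WT OVA 2 and 2961 and 3345 without WT OVA 1. The shares of all genes given beside the counts move with them.

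No called OVA difference of a member changed sign. Other values changed sign as follows. For OVA in WT lungs, Grem1 was 0.17 with normexp and 0.15 without bright-background spots, and Tgfb3 was 0.01 without slide 1. For OVA in KO lungs, Apobec1 was -0.14 with the mean of probes and Gdf10 0.01 with slide as a block. For KO minus WT after OVA, normexp gave 0.03 for Bmp4 and -0.24 for Fst. After saline, normexp gave 0.10 for Tgfb2, 0.02 for Tgfb3 and -0.13 for Fst, and without bright-background spots Gdf3 was 0.01, Gdf15 0.00 and Tgfb2 0.05. There, Tgfb2 was 0.01 with median scaling and 0.05 in the value table, Bmp4 was -0.10 in the value table and -0.03 without slide 1, and Gdf15 was 0.51 without slide 1. For the difference of the OVA effects, normexp gave -0.02 for Tgfb2 and -0.04 for Grem1, and without bright-background spots Gdf15 was -0.04, Inhba -0.01 and Grem1 -0.02. Gdf15 was 0.00 with median scaling, -0.02 in the value table and -0.58 without slide 1, and Inhba -0.04 in the value table and -0.08 without slide 1. Without slide 1 Inhbb was -0.15 and Fst 0.39.

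With 1 array left out, values that crossed 0 ranged as follows. OVA in KO lungs: Gdf10 -0.11 to 0.02. OVA in WT lungs: Tgfb3 -0.38 to 0.02 and Grem1 -0.47 to 0.06. KO minus WT after OVA: Gdf15 -0.20 to 0.13, Inhba -0.67 to 0.07, Inhbb -0.33 to 0.10, Bmp4 -0.10 to 0.02, Bmp6 -0.17 to 0.40, Tgfb2 -0.03 to 0.12, Tgfb3 -0.39 to 0.00 and Fst -0.04 to 0.87. After saline: Gdf3 -1.15 to 0.25, Gdf15 -0.31 to 0.24, Bmp4 -0.08 to 0.13 and Tgfb2 -0.10 to 0.06. Difference of the OVA effects: Gdf15 -0.29 to 0.27, Inhba -0.19 to 0.55, Bmp4 -0.18 to 0.03, Bmp6 -0.39 to 0.19, Tgfb2 -0.01 to 0.16, Tgfb3 -0.33 to 0.06 and Fst -0.47 to 0.44.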
